A study of Homo sapiens with 16 samples.

Results

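OTUD5 was knocked down in HCT116 cells, an established human colon cancer line, that carried a truncated Rpn10, and the transcriptomes of 4 knockdown libraries were compared with those of 4 libraries of the same edited cells given a scrambled siRNA. These 8 libraries, of 16 in the series, were chosen by their library names and treatment labels, since the titles of the 4 knockdown libraries say scramble. The edited gene product lacks the ubiquitin interacting motif of Rpn10, which is encoded by PSMD4. The labels do not say how many clones the edited cells represent, so effects of the truncation and of clonal origin cannot be told apart. Transfection was in reverse with Lipofectamine RNAiMAX, at 50 nM for 48 hours in McCoy 5A medium, and the knockdown reagent was a mixture of 4 siRNAs. The remaining 8 libraries came from unedited cells, labelled Control and called WT here, with the same pair of treatments in 4 libraries each, and served to test whether the knockdown effect differed between genotypes. All 8 knockdown libraries received the same mixture, so loss of OTUD5 and off-target effects of the siRNAs cannot be told apart.

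OTUD5 is a deubiquitinase of the ovarian tumour (OTU) family. It removes ubiquitin chains from substrate proteins, among which published work has placed the signalling adaptor TRAF3, the tumour suppressor p53 and chromatin regulators. Rpn10 is one of the proteasome's own ubiquitin receptors and sits in the regulatory particle that captures ubiquitylated proteins before they are degraded. HCT116 cells carry wild-type p53 and a stabilising mutation of beta-catenin, so p53 targets and Wnt targets are both measurable in this line.

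Each of the 16 libraries held between 28777244 and 29645663 counts. Levels below are TMM-scaled CPM, listed in the order of replicates 1 to 4. Genes were called where edgeR's quasi-likelihood test with Benjamini-Hochberg adjustment over 17104 tested genes gave an adjusted p below 0.05. Values after ± are approximate standard errors of log2 fold changes, with n = 4 libraries per group. Each was taken as the size of the change divided by the square root of that test's F statistic. The fit behind that statistic shared its dispersion over all 16 libraries. Since the labels speak of biological replicates but name no separate cultures, the p-values rest on the spread among these libraries, which may be technical. The knockdown libraries of truncation cells had a count in 26913 to 27737 genes and the scramble libraries in 25626 to 26451, ranges that did not overlap. Among the WT knockdown libraries, replicate 3 had a count in 32264 genes and the other replicates in 26225 to 26955. Genes of the mitochondrial chromosome, RNA genes included, took 3.36 to 4.69% of counts with knockdown and 2.87 to 4.33% with scramble. In bulk RNA, fewer cells expressing a gene and less RNA per cell cannot be told apart. Over all tested genes 28.7% were called higher and 28.1% lower, shares to set beside each count of members that follows. These shares differed by expression level. At a mean log2 CPM of 4 to 6 they were 33.3% and 35.9%, at 6 to 8 35% and 37.3%, and below 0 18.5% and 8.63%. The lists below were not matched for level, so well expressed lists should be set beside the shares at their level. Of 12 markers of a colon epithelial line 8 passed the filter on low counts, of which 3 rose and 2 fell, and VIL1, LGALS4, GPA33 and CEACAM5 did not pass. The rises were in MUC13 (1.93 ± 0.25, from a low level) and the keratins KRT8 (0.47 ± 0.08) and KRT18 (0.45 ± 0.09), 2 genes with many pseudogene copies, and the falls in EPCAM (-0.63 ± 0.06) and KRT19 (-0.26 ± 0.06). The summed level of these 8 markers was 4515 to 5439 CPM with knockdown and 4011 to 4337 with scramble. Of 10 fibroblast markers 4 were tested and none was called, and their summed level was 34.5 to 40.7 CPM with knockdown and 33.8 to 37.7 with scramble. Of 14 leukocyte markers 5 were tested and only CD4, at 0.838, 0.892, 0.726 and 0.833 CPM with knockdown against 0.415, 0.337, 0.505 and 0.41 with scramble, was called, with a summed level of 1.87 to 2.28 CPM with knockdown and 2.06 to 4.00 with scramble. Of 7 erythroid and endothelial markers 4 were tested and 2 were called higher, KDR (1.27 ± 0.50) and HBA2 (1.03 ± 0.43), with a summed level of 1.48 to 1.88 CPM with knockdown and 0.796 to 1.22 with scramble. Both calls were lost with DESeq2, with no filter on low counts, and without knockdown replicate 1, 3 or 4 or scramble replicate 1 or 4, that of HBA2 also without knockdown or scramble replicate 2, and HBA2 has a near-identical copy. The part of these markers in the results was not tested. Of 172 genes named here, 58 overlap another tested gene in GENCODE 29, 46 of them on the other strand, and reads from such pairs may have been divided either way, since the sources used here do not give the strand setting of the counting.

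The targeted gene was low in every knockdown library. OTUD5 (ENSG00000068308, chromosome X, 48922028 to 48958386 on GRCh38) stood at 19.9, 19.4, 22.5 and 22.1 CPM with knockdown against 93.8, 90.3, 95.9 and 95.1 with scramble. The groups were far apart, with a log2 fold change of -2.16 ± 0.07, or 4.47-fold lower, and an adjusted p of 1.9e-17 by edgeR's quasi-likelihood test. In WT cells the log2 fold change was -2.13 ± 0.07, and the difference between genotypes was -0.03 ± 0.10 (adjusted p = 0.91 by the same test). The depth of the knockdown therefore differed between genotypes by less than its standard error. PSMD4 (ENSG00000159352, chromosome 1, 151254703 to 151267479), the edited gene, stood at 340.2, 338, 309 and 313 CPM with knockdown against 195, 203, 196 and 205 with scramble. All 4 knockdown libraries lay above all 4 scramble libraries, a rise of 0.70 ± 0.06, against 0.16 ± 0.06 in WT cells, and the difference of 0.54 ± 0.08 was called (adjusted p = 3.5e-04 by the same test). Gene-level counts cannot show the missing motif, so PSMD4 does not check the genotype label.

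The response to OTUD5 knockdown in truncation cells was broad and close to balanced in direction. Of 17104 tested genes, 9706 were called (56.7%), 4904 of them higher (28.7%) and 4802 lower (28.1%), and the median log2 fold change over all tested genes was 0.023. Changes of 2-fold or more were seen for 785 higher genes (4.59%) and 857 lower genes (5.01%), together 1642 (9.6%). Past a log2 change of 2 in size there were 83 higher and 71 lower genes, and past 3 there were 21 and 6. The direction at 2-fold differed by expression level. Below a mean log2 CPM of 0, 451 genes were higher by at least 2-fold and 190 lower, whereas at 8 and above 3 were higher and 23 lower. Both kinds of group separation were also counted directly: 4525 genes (26.5%) had all 4 knockdown libraries above all 4 scramble libraries, and 4691 (27.4%) had all 4 below.

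**Figure D1:**
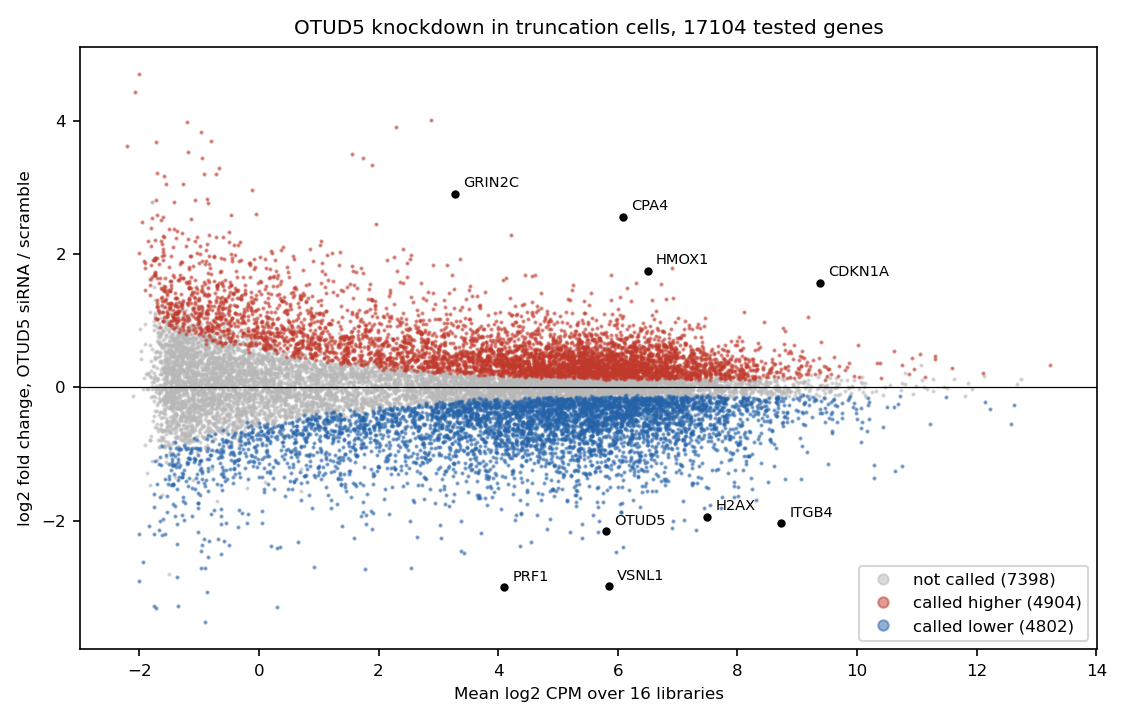
Each point is one of 17104 tested genes, with its mean log2 CPM over 16 libraries on the x axis and its log2 fold change by OTUD5 knockdown in truncation cells on the y axis. Red points (4904) were called higher, blue points (4802) were called lower and grey points (7398) were not called, and named genes are marked in black, among them OTUD5 at -2.16 and GRIN2C at 2.91.

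Among well expressed genes, defined by a mean log2 CPM no lower than 3, the largest rises were in genes of varied function. GRIN2C, a subunit of the NMDA glutamate receptor, stood at 20.7, 20.6, 17.6 and 32.2 CPM with knockdown against 2.63, 2.94, 3.23 and 3.35 with scramble, a rise of 2.91 ± 0.17 or 7.49-fold. Replicate 4 was the highest knockdown library and its level exceeded that of every other library. CPA4, a secreted metallocarboxypeptidase, stood at 111, 121, 104 and 123 CPM with knockdown against 19.2, 20.4, 17.96 and 20.2 with scramble (2.56 ± 0.12). ATP2A1, the calcium pump of fast muscle sarcoplasmic reticulum, stood at 13.97, 13.1, 12.98 and 19.1 CPM with knockdown against 3.91, 4.05, 4.62 and 3.96 with scramble (1.84 ± 0.13). In each of these genes the groups were separated by a wide gap. The secreted Wnt antagonist DKK1 stood at 126, 124, 114 and 116 CPM with knockdown against 35.2, 36.2, 32.6 and 35.2 with scramble, with little spread within either group (1.79 ± 0.07). HMOX1, the haem-degrading oxygenase, stood at 132, 144, 113 and 132 CPM with knockdown against 38.5, 38.9, 39.02 and 38.6 with scramble (1.75 ± 0.11), and its scramble libraries were nearly equal. ARID3A, a DNA-binding protein of the ARID family, stood at 97.1, 103, 82.2 and 106 CPM with knockdown against 31.1, 30.2, 30.4 and 29.1 with scramble (1.68 ± 0.06). Other rises of that size were TNXB (2.29), VASN (1.69), a membrane protein that binds TGF-beta, COL7A1 (1.69), the anchoring fibril collagen, the polarity scaffold LIN7B (1.68) and the kinase PSKH1 (1.66). TNXB has a near-identical partial copy beside it, and the division of reads between them is uncertain.

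The largest falls were of similar size. PRF1, which encodes perforin, stood at 2.58, 3.19, 4.49 and 3.2 CPM with knockdown against 24.8, 27.7, 28.3 and 26.7 with scramble, a fall of 2.99 ± 0.16 on the log2 scale. The neuronal calcium sensor VSNL1 stood at 17.2, 18.7, 22.6 and 16.5 CPM with knockdown against 148, 153, 144 and 149 with scramble (-2.98 ± 0.08). No knockdown library of either gene came near the scramble range. LFNG, the glycosyltransferase that modifies Notch receptors, stood at 2.11, 2.68, 3.17 and 2.83 CPM with knockdown against 14.1, 16.8, 13.8 and 14.4 with scramble (-2.45 ± 0.14). The focal adhesion adaptor TNS4 stood at 15.9, 18.3, 19.4 and 22.5 CPM with knockdown against 106, 110.1, 104 and 104 with scramble (-2.47 ± 0.08), and the adhesion molecule MCAM at 21.8, 23.4, 27.6 and 24.3 CPM with knockdown against 126, 133, 121 and 131 with scramble (-2.39 ± 0.09). Both fell more than 5-fold from a high level. NES, the intermediate filament nestin, stood at 13.3, 14.6, 18 and 15.4 CPM with knockdown against 71.1, 74.7, 73.5 and 74.6 with scramble (-2.26 ± 0.08). The others were SH2D5 (-2.48), the Wnt-inactivating lipase NOTUM (-2.38), ABHD14B (-2.31), TM4SF18 (-2.26) and the mitochondrial RNA methyltransferase MRM1 (-2.18). All 11 fell in WT cells too, by smaller amounts, from -2.46 for VSNL1 to -1.57 for NES.

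**Figure D2:**
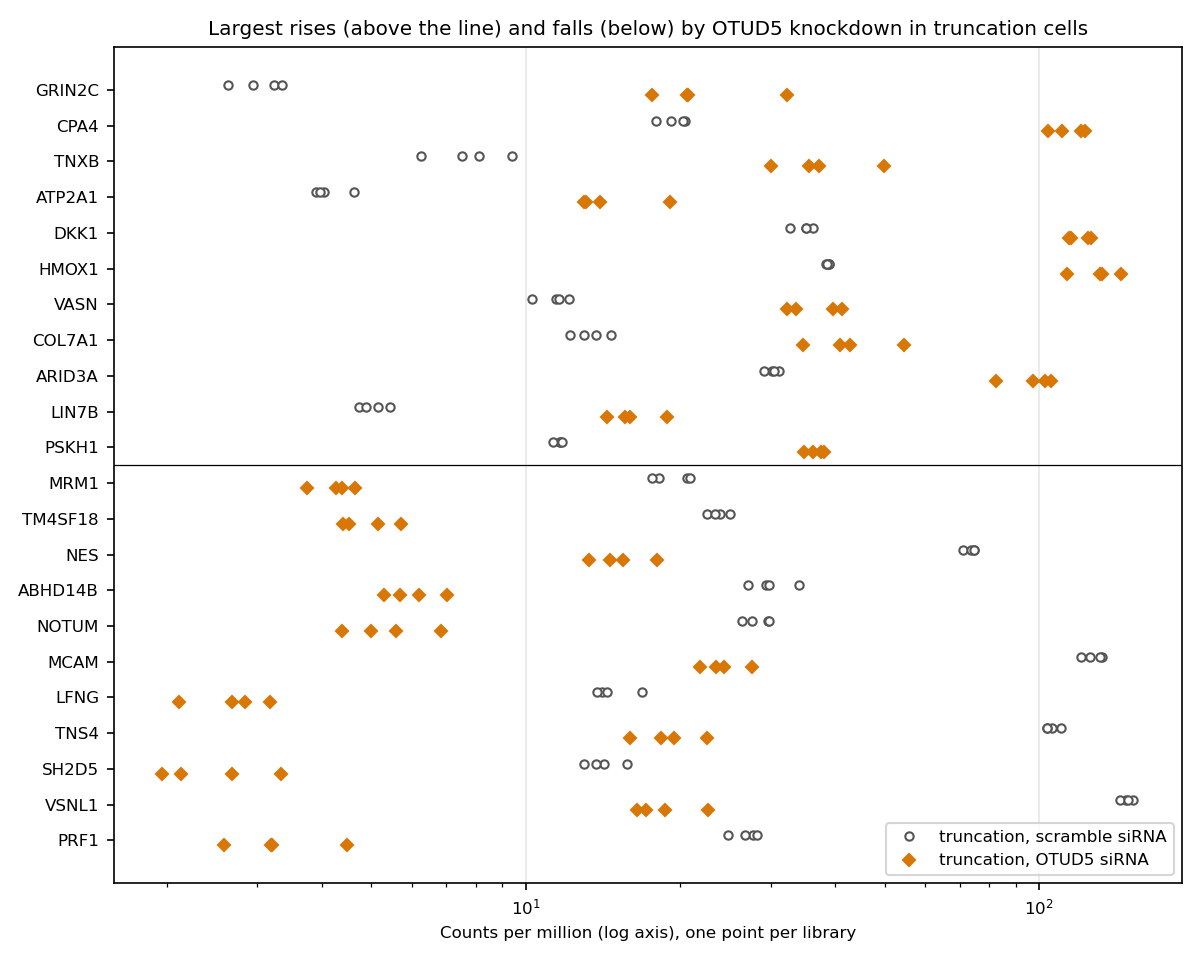
CPM of the 11 rises (above the line) and 11 falls (below it) described here as the largest among genes at or above a mean log2 CPM of 3, on a log axis, with one point per library: open circles are scramble libraries and filled diamonds knockdown libraries of truncation cells. The groups do not overlap in any of the 22 genes, which the choice of genes required.

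Genes of the ubiquitin system moved in both directions. Among 33 tested genes for 26S proteasome subunits there were 15 rises and 7 falls, and the median was 0.14. PSMD14, the subunit that cuts ubiquitin from captured proteins, stood at 207, 206, 209 and 178 CPM with knockdown against 320, 323, 317 and 332 with scramble (-0.69 ± 0.05), and PSMB3, of the core particle, at 234, 232, 211 and 202 CPM with knockdown against 341, 340.3, 343 and 364 with scramble (-0.66 ± 0.06). Both fell in every library, while most of the called subunits rose by small amounts, such as PSMC2 (0.36 ± 0.06), named after its values were seen. PSMA2 stood at 6.63, 7.28, 6.5 and 5.2 CPM with knockdown against 4.08, 3.71, 3.88 and 4.92 with scramble, a rise of 0.63 ± 0.13, at a low level for a subunit gene, and its count may be divided with an overlapping readthrough transcript. Of 17 assembly factors, activators and control genes, 9 fell and 4 rose, including DDI2 (-0.72), the protease that activates the transcription factor NFE2L1, and the activator subunit PSME1 (-0.65).

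Of 27 UBR and HECT ubiquitin ligases, 18 rose and 3 fell, and their median was 0.24. The members with the largest changes included both directions. HECTD3 stood at 17.6, 16.4, 20.01 and 21.4 CPM with knockdown against 57.2, 56.5, 54.1 and 54.2 with scramble (-1.56 ± 0.08) and SMURF2, which targets TGF-beta receptors and SMAD proteins, at 149.5, 159.8, 151 and 155 CPM with knockdown against 304, 324, 302 and 295 with scramble (-0.99 ± 0.06). Both fell in every library. ITCH stood at 131, 123, 129 and 121 CPM with knockdown against 85.9, 87.02, 83.4 and 80.02 with scramble (0.59 ± 0.06) and UBE3B at 104, 106, 102 and 109 CPM with knockdown against 73.96, 71.6, 71.1 and 67.9 with scramble (0.57 ± 0.06). UBR4 stood at 342, 483, 361 and 615 CPM with knockdown against 296, 317, 334 and 238 with scramble (0.60 ± 0.13), and its level ranged widely among knockdown libraries, with replicate 4 highest. The transcripts of these ligases had a median length of 7235 bases, and long transcripts were called higher more often, as described below for well expressed protein-coding genes. Of 15 tested OTU family genes, OTUD5 included, 5 rose and 5 fell (33.3% each), against 28.7% and 28.1% of all tested genes. OTUD1 rose by 0.72 ± 0.12, and OTUD7A by 1.86 ± 0.30 from a low level, at 1.41, 1.44, 1.72 and 2.03 CPM with knockdown against 0.519, 0.742, 0.202 and 0.342 with scramble. The enzyme that starts most ubiquitylation, UBA1, fell from 651, 646, 644 and 632 CPM with scramble to 371, 389.7, 403 and 361 with knockdown (-0.76 ± 0.06), and the VCP cofactor FAF2 rose by 0.63 ± 0.05.

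Targets of p53 rose together. Of 34 tested members 29 were higher and 2 lower, with a median of 0.65, and in 28 of them all knockdown libraries lay above all scramble libraries. The 2 that fell were KITLG (-0.40) and FDXR (-0.19, not called under upper-quartile scaling, without TMM scaling, or without knockdown replicate 2 or scramble replicate 4), named after their values were seen. CDKN1A, the cyclin-dependent kinase inhibitor p21, stood at 1227, 1165, 1022 and 1105 CPM with knockdown against 381, 379, 379 and 383 with scramble (1.57 ± 0.05). The phosphatase PPM1D, which switches off p53 signalling, stood at 147, 142, 132 and 146 CPM with knockdown against 69.9, 66.97, 68.4 and 62.1 with scramble (1.09 ± 0.07), and SESN1, a stress-induced regulator of mTORC1, at 48.8, 45.9, 41.01 and 43.5 CPM with knockdown against 19.9, 20.9, 21.5 and 20.7 with scramble (1.11 ± 0.06). No knockdown library of these 3 genes came near the scramble range. MDM2, the ubiquitin ligase for p53 and itself a target, stood apart from the list at 122, 119, 129 and 134 CPM with knockdown against 142, 138, 142 and 131 with scramble, where the groups overlapped (-0.13 ± 0.07, not called). In WT cells MDM2 rose by 0.43 ± 0.07, and the difference between genotypes was -0.56 ± 0.10 (adjusted p = 0.001 by edgeR's quasi-likelihood test). MDM2 was named after its values were seen, and its fall in truncation cells was called (adjusted p = 0.0214 by the same test) when only truncation libraries were fitted, and also without knockdown or scramble replicate 4. In WT cells 29 of the 34 rose and 1 fell, with a median of 0.69, and the interaction was called in 4 of the 34, all negative.

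Regulators of cell death changed on both sides. BMF, a BH3-only protein that neutralises survival proteins, stood at 6.53, 7.65, 6.47 and 6.39 CPM with knockdown against 0.588, 0.709, 0.741 and 0.615 with scramble (3.34 ± 0.14), a 10.1-fold rise from under 1 CPM. BAX, an effector that permeabilises mitochondria, stood at 151, 144, 132 and 143 CPM with knockdown against 84.02, 85.6, 91.05 and 95.02 with scramble (0.68 ± 0.06), while the related BAK1 fell by 0.69 and the BH3-only BAD by 0.85 on the log2 scale. BCL2L2, which encodes the survival protein BCL-W, stood at 14, 15.6, 16.4 and 16.3 CPM with knockdown against 46.1, 45.04, 43.5 and 42.1 with scramble (-1.51 ± 0.07). Of the 4 tested survival genes of this family 3 fell, with BCL2 at -0.58 and BCL2L1 at -0.56, and MCL1 rose by 0.21. Death receptors and their adaptors had 10 of 13 higher and none lower, among them FAS at 29.3, 31.2, 27.5 and 29.7 CPM with knockdown against 15.9, 15.3, 15.2 and 15.7 with scramble (0.92 ± 0.09). In WT cells 8 of the 13 were higher and 2 lower. This list overlaps the p53 targets, since the largest rise (1.92) is the same in both, so the 2 counts are not independent.

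DNA replication genes fell. The licensing list, whose products load the MCM helicase at origins, had 12 of 16 members lower and 1 higher, with a median of -0.40, and the list of fork helicase and polymerase genes had 19 of 33 lower and 3 higher, with a median of -0.25. MCM5, a subunit of the helicase, stood at 124, 128, 128 and 128 CPM with knockdown against 372, 349, 341 and 349.7 with scramble (-1.47 ± 0.06). GINS1, of the complex that activates the helicase, stood at 14.2, 15.8, 17.4 and 14.7 CPM with knockdown against 52.6, 51.3, 56.7 and 53.4 with scramble (-1.79 ± 0.07), and its partner GINS2 at 29.2, 27.7, 30.9 and 25.8 CPM with knockdown against 68.7, 72.1, 67.3 and 76.02 with scramble (-1.32 ± 0.07). In each of them every knockdown library lay far below every scramble library. POLD1, the catalytic subunit of DNA polymerase delta, stood at 37.8, 33.7, 40.5 and 47.1 CPM with knockdown against 121, 119, 112 and 116 with scramble (-1.55 ± 0.08), the fork protection factor TIMELESS at 50.9, 51.1, 55.1 and 59.01 CPM with knockdown against 149.8, 142, 140.5 and 138 with scramble (-1.40 ± 0.05) and the Okazaki fragment ligase LIG1 at 26.7, 29.8, 34.2 and 33.8 CPM with knockdown against 86.7, 81.7, 79.7 and 77.9 with scramble (-1.39 ± 0.08). MCM6 fell from 191, 184, 177 and 185 to 118, 119, 124 and 108 CPM (-0.65 ± 0.05). Against this direction, the sliding clamp gene PCNA rose by 0.17 ± 0.06, the polymerase epsilon subunits POLE2 and POLE4 by 0.30 ± 0.08 and 0.34 ± 0.09, and ORC2, of the origin recognition complex, by 0.22 ± 0.06. These 4 were named after their values were seen, the groups overlapped for ORC2, and the rise of PCNA was not called with no filter on low counts, without knockdown replicate 1 or 2 or without scramble replicate 1, 2 or 3.

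Replication genes are known to carry sites for the E2F transcription factors just upstream of their start, and promoters were therefore read for these letters. RefSeq promoters of 300 bases (250 before the start and 50 after, GRCh38.p14) were searched on both strands for TTTGGCGC, TTTCCCGC, TTTCGCGC and TTTGCCGC. One of these was found in 7 of 14 licensing genes with a promoter (50.0%) and in 12 of 28 fork genes (42.9%), against 5.32% of 10839 tested protein-coding genes. The 150 bases before the start are shown for 3 members described above, with the E2F letters in capitals on whichever strand they lie, and CCAAT or its reverse complement ATTGG also in capitals.
MCM6 (chr2:135876444-135876593, minus strand): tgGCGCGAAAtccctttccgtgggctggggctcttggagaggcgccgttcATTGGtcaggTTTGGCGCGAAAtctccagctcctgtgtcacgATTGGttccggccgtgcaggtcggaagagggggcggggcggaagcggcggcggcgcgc
GINS2 (chr16:85688955-85689104, minus strand): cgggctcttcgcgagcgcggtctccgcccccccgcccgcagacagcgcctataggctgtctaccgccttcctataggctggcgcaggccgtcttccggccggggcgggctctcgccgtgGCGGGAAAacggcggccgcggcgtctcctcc
LIG1 (chr19:48170345-48170494, minus strand): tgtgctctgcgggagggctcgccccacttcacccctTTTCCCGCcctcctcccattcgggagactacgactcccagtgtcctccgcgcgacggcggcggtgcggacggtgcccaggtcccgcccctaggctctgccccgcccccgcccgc
MCM6 holds 3 E2F matches, a pair of them overlapping, and GINS2 and LIG1 hold 1 each. The letters were not confined to genes that fell: PCNA and POLE4, which rose, also held 1 match each in these 150 bases. MCM5, GINS1, POLD1 and TIMELESS, which fell by more than LIG1, were not among the genes found with a match there. Over all genes lower by at least 2-fold, 7.13% of 519 promoters held the letters, and over those higher by at least 2-fold 2.25% of 355 did (8 genes). Without the 2-fold rule the contrast was smaller, at 6% of 3498 genes called lower and 4.7% of 3402 called higher. Members of the licensing and fork lists are among these genes. A match describes the letters in the window and is not a measured binding site.

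Mitosis genes fell in near unison. Of 39 tested members 37 were lower and none higher, with a median of -0.36, and in 34 the groups did not overlap. KIF20A, a kinesin of cytokinesis, stood at 35.6, 37.4, 40.3 and 38.9 CPM with knockdown against 84.4, 81.3, 76.9 and 76.95 with scramble (-1.07 ± 0.06). AURKB, the kinase of the chromosomal passenger complex, stood at 46.9, 48.02, 44.3 and 45.3 CPM with knockdown against 94.7, 92.9, 87.5 and 97.6 with scramble (-1.01 ± 0.06). CENPA, the centromeric histone, stood at 11.3, 10.9, 10.01 and 10.1 CPM with knockdown against 21.9, 21.9, 20.1 and 20.7 with scramble (-1.001 ± 0.07), and ESPL1, the protease separase, at 37.8, 41.2, 44.97 and 48.05 CPM with knockdown against 90.3, 83.7, 82.9 and 79.03 with scramble (-0.97 ± 0.07). These 4 genes fell by about 2-fold, and their groups did not overlap. The mitotic cyclin CCNB1 stood at 164, 171, 169 and 154 CPM with knockdown against 255, 256, 246 and 255 with scramble (-0.62 ± 0.05) and the kinase PLK1 at 152, 158, 147 and 156 CPM with knockdown against 223, 225, 211 and 218 with scramble (-0.52 ± 0.05), and both were named after their values were seen.

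In WT cells the same knockdown left most of these genes closer to their scramble level. There 11 of the 39 mitosis genes were lower and 2 higher, with a median of -0.065, against 25.1% lower and 25.2% higher among all 17104 genes (50.3% called). The interaction, here the log2 fold change in truncation cells less the one in WT cells, was negative in all 39 and called in 24, whereas 624 of all tested genes were called negative (3.65%). CCNB1 changed by -0.05 ± 0.05 in WT cells, an interaction of -0.57 ± 0.07, and PLK1 by -0.02 ± 0.05, an interaction of -0.49 ± 0.07. AURKA, a centrosomal kinase, rose in WT cells by 0.29 ± 0.05 and fell in truncation cells by 0.16 ± 0.05, a fall that was not called under upper-quartile scaling, and was named after its values were seen. The number called was 17 under upper-quartile scaling and 31 with DESeq2, and 17 to 25 when 1 library was left out. Licensing genes had 5 of 16 called negative (4 to 8 when 1 library was left out, the highest without WT knockdown replicate 3) and fork genes 3 of 33. The count of fork genes was 8 with DESeq2 and 2 to 7 when 1 library was left out, with 7 without knockdown replicate 3 of either genotype and 5 without truncation knockdown replicate 4.

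Promoters of late cell cycle genes are known to carry a cell cycle homology region (CHR) together with CCAAT boxes. The CHR letters TTTGAA or TTCGAA, on either strand, were found in 24 of 34 mitosis genes with a promoter (70.6%), against 11.1% of all 10839, and CHR with CCAAT in 20 of 34 (58.8%), against 4.6%. The 150 bases before the start are printed for 3 members, with CHR letters and CCAAT or ATTGG in capitals, to show where these letters lie.
CENPA (chr2:26785906-26786055, plus strand): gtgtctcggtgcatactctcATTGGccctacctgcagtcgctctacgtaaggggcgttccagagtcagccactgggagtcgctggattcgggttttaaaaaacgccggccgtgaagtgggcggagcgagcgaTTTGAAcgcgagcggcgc
ESPL1 (chr12:53268149-53268298, plus strand): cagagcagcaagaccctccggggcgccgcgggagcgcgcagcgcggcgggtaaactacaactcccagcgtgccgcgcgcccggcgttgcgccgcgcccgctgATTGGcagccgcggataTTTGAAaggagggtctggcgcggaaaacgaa
PLK1 (chr16:23678739-23678888, plus strand): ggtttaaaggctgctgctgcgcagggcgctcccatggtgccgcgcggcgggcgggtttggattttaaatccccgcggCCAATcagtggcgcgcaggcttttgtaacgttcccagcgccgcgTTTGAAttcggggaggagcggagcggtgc
Counted from the start, the CHR letters begin at position -18 in CENPA, -31 in ESPL1 and -29 in PLK1. In 16 mitosis genes with such letters within 150 bases before the start, the match nearest the start began at -115 to -10. The exclusions given for the search of 150 bases above held here too. Among all genes with a called negative interaction, 16.3% of 502 promoters held CHR letters and 10.6% held both kinds, and among those with a called positive interaction 6.5% and 1.5% of 200 did. The mitosis genes are part of the first of these groups. Among genes called lower by knockdown in truncation cells 10.7% of 3498 promoters held CHR letters, and among those called higher 10.1% of 3402. At 2-fold or more these shares were 10.2% of 519 and 10.1% of 355, all close to the 11.1% of all genes. Both kinds were held by 5.17% of the called lower and 4% of the called higher promoters, against 4.6% of all.

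**Figure D3:**
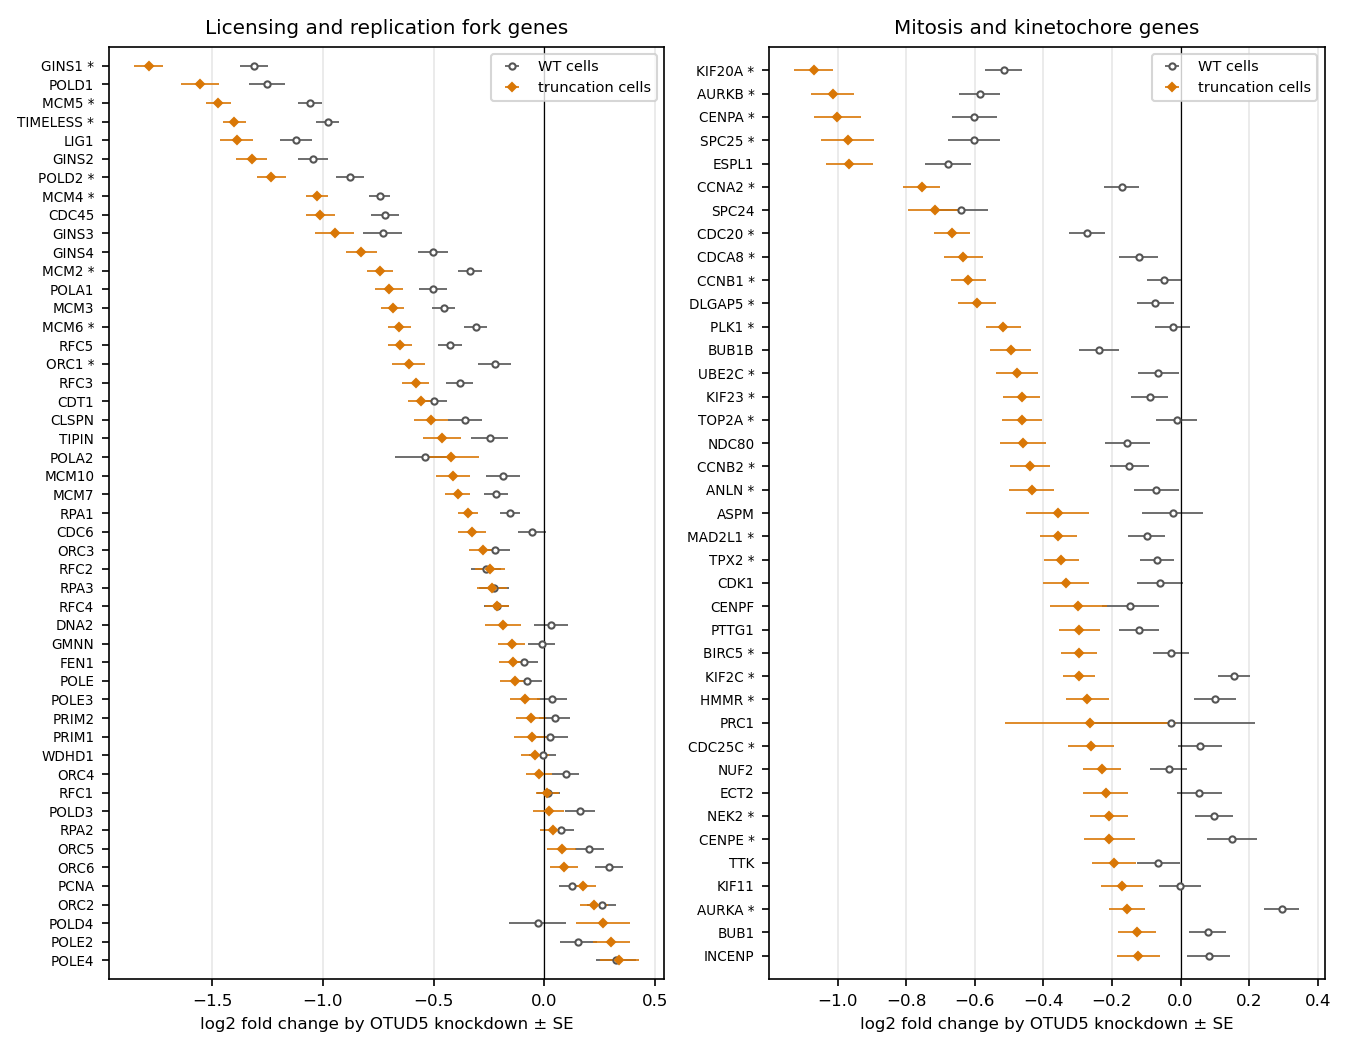
Log2 fold change by OTUD5 knockdown (x axis, points with bars of 1 standard error) for licensing and replication fork genes on the left and mitosis genes on the right, with open circles for WT cells and filled diamonds for truncation cells. An asterisk marks a called interaction, and in the mitosis panel all 39 diamonds lie to the left of their circles.

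Other cell cycle genes changed in both directions. Of 15 tested G1 cyclins, kinases and inhibitors 3 rose and 5 fell, with a median of -0.13. CDK4, the kinase that drives passage through G1, fell from 126, 124, 123 and 125 to 57.4, 54.6, 54.5 and 53.2 CPM (-1.18 ± 0.06), and the kinase CDK2 changed by -0.47 ± 0.06, a called fall. Among the inhibitors of these kinases CDKN1B rose by 0.70 ± 0.06, while CDKN2C changed by -0.47 ± 0.08, also a called fall. MYBL2, a subunit of the activator that binds CHR elements, stood at 80.4, 78.4, 78.4 and 80.3 CPM with knockdown against 174, 171, 165 and 173 with scramble (-1.11 ± 0.06), and FOXM1, its late partner, at 80.3, 79.8, 77.3 and 90.3 CPM with knockdown against 138, 132, 124 and 124 with scramble (-0.66 ± 0.06). Both fell without overlap, yet the 19 tested E2F, RB, MuvB and FOXM1 genes had 7 higher and 6 lower. The histone variant H2AX stood at 63.6, 68, 62.2 and 65.9 CPM with knockdown against 247, 248, 247 and 253 with scramble (-1.94 ± 0.08). Of 10 tested replication-independent histone genes 6 fell and none rose, while of 19 tested replication-dependent ones 4 rose and 2 fell. In the Fanconi and homologous recombination list 17 of 28 were lower and 1 higher, with a median of -0.26. FANCD2, which is ubiquitylated at stalled forks, stood at 24.7, 25.8, 26.6 and 27.4 CPM with knockdown against 64.3, 63.9, 57.2 and 54.2 with scramble (-1.20 ± 0.07), and the core complex members FANCG and FANCE fell by 1.20 and 1.17 on the log2 scale.

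Nucleotide supply fell with replication. Of 20 genes of purine and pyrimidine synthesis 15 were lower and none higher, with a median of -0.495, and of 13 deoxynucleotide genes 9 were lower and 2 higher. PFAS, of purine synthesis, stood at 43.6, 43.8, 52.01 and 53.6 CPM with knockdown against 105, 98.8, 100.2 and 92.5 with scramble (-1.04 ± 0.07). CAD, which starts pyrimidine synthesis, stood at 96.1, 102, 108 and 114 CPM with knockdown against 212, 202, 203 and 180.5 with scramble (-0.92 ± 0.06). The groups did not overlap in either. SHMT2, the mitochondrial enzyme that moves the serine carbon to folate, stood at 56.4, 58.7, 69.9 and 58.5 CPM with knockdown against 209, 212, 209.5 and 222 with scramble (-1.81 ± 0.07). The serine and folate list had 8 of 18 lower and 4 higher.

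Stress response lists moved in different directions. Of 21 targets and members of the ATF4 and CHOP response 12 rose and 6 fell, with a median of 0.33. CHAC1, which degrades glutathione, stood at 32.5, 32.2, 23.7 and 28.1 CPM with knockdown against 9.27, 10.3, 9.27 and 9.29 with scramble (1.61 ± 0.12), and DDIT3, which encodes CHOP, at 17.4, 18.8, 16.1 and 16.3 CPM with knockdown against 6.75, 8.13, 7.08 and 7.96 with scramble (1.20 ± 0.13). ASNS, asparagine synthetase, rose by 1.01 ± 0.22 and was named after its values were seen. Of 23 amino acid transporters 10 rose and 6 fell. SLC38A2, which imports neutral amino acids, stood at 596, 642, 681 and 613 CPM with knockdown against 397, 404, 408 and 378 with scramble (0.68 ± 0.06), while SLC36A1, a proton-coupled transporter of lysosomes, stood at 13.2, 11.9, 12.5 and 15.6 CPM with knockdown against 42.03, 40.9, 38.01 and 36.05 with scramble (-1.56 ± 0.09). The aminoacyl-tRNA synthetases, of which several are ATF4 targets, had 11 of 20 higher and 7 lower, but the largest changes were falls. VARS1, for valine, stood at 118, 123, 132 and 124 CPM with knockdown against 399, 402, 405 and 395 with scramble (-1.69 ± 0.06) and QARS1, for glutamine, at 68.2, 75, 84.5 and 71.8 CPM with knockdown against 201, 199, 201 and 211 with scramble (-1.44 ± 0.08), while AARS1, for alanine, stood at 576, 593, 558 and 546 CPM with knockdown against 389, 388, 382 and 393 with scramble (0.55 ± 0.05). Of 26 genes of the endoplasmic reticulum chaperone and unfolded protein list 15 rose and 9 fell. DNAJB9 rose by 0.94 ± 0.09, and the chaperone HYOU1 stood at 166, 186, 195 and 195 CPM with knockdown against 521, 500.4, 489 and 473 with scramble (-1.42 ± 0.06).

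Cytosolic heat shock chaperones fell, with 18 of 26 lower, none higher and a median of -0.295. DNAJB1, a co-chaperone of HSP70, stood at 186, 198, 180.2 and 178 CPM with knockdown against 414, 408, 372 and 393 with scramble (-1.10 ± 0.06). HSPA8, the constitutive HSP70, stood at 1952, 2102, 2008 and 1798 CPM with knockdown against 2916, 2943, 2777 and 2841 with scramble (-0.55 ± 0.08), and its change in WT cells was -0.15 ± 0.08. HSPA1A (-0.63) and HSPA1B (-0.73) are near-identical copies whose reads the counting may have divided, so their separate values are uncertain.

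Most of the called Wnt targets and feedback genes were lower. Of 18 tested 11 fell and 4 rose, with a median of -0.57, against -0.073 in WT cells. Secreted antagonists within this list moved both ways: NOTUM had its largest fall (-2.38) and DKK1 its largest rise (1.79). AXIN2, the scaffold induced by the pathway it restrains, stood at 20.5, 20.6, 23.2 and 21.4 CPM with knockdown against 47.98, 45.2, 48.5 and 45.5 with scramble (-1.13 ± 0.06), and in WT cells it changed by -0.31 ± 0.07. The difference of -0.82 ± 0.09 was called (adjusted p = 9.6e-06 by edgeR's quasi-likelihood test). SP5, a transcription factor of the same feedback, stood at 1.91, 2.02, 1.85 and 1.33 CPM with knockdown against 6.3, 6.34, 6.81 and 6.56 with scramble (-1.87 ± 0.16). The ligand WNT10B stood at 3.38, 3.33, 3.67 and 2.66 CPM with knockdown against 11.8, 13.4, 13.2 and 13.9 with scramble (-2.002 ± 0.11) and DVL2, which relays the receptor signal, at 39.2, 37.2, 46.6 and 40.6 CPM with knockdown against 85.4, 83.8, 82.6 and 85.7 with scramble (-1.05 ± 0.08). DKK1 rose from a scramble level of 35.2, 36.2, 32.6 and 35.2 CPM in truncation cells, whereas WT cells held 121, 113, 119.6 and 134 CPM with scramble and 189, 226, 197 and 194 with knockdown. Its interaction of 1.06 ± 0.09 was called (adjusted p = 1.1e-07 by the same test), and the knockdown values in truncation cells lay within the range of the WT scramble libraries. In the Notch list 13 of 26 fell and 5 rose, and HES2, a repressor of the HES family, stood at 10.3, 10.9, 10.9 and 8.99 CPM with knockdown against 29.2, 29.96, 25.8 and 29.4 with scramble (-1.48 ± 0.10). NOTCH4, one of the receptors, stood at 0.268, 0.24, 0.363 and 0.2 CPM with knockdown against 0.726, 0.911, 0.708 and 0.649 with scramble (-1.47 ± 0.40).

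Other signalling lists were more mixed. Of 33 TGF-beta and BMP genes 17 rose and 8 fell, and their median was 0.20. TGFBR3, the co-receptor betaglycan, stood at 26, 27.6, 26.5 and 28.2 CPM with knockdown against 11.5, 12.01, 10.7 and 8.54 with scramble (1.34 ± 0.09), and SMAD3, which carries the signal to the nucleus, at 253, 261, 232 and 276 CPM with knockdown against 130.1, 129, 119 and 117 with scramble (1.04 ± 0.06). SMAD7, the inhibitor of the same receptors, stood at 37.5, 40.5, 27.5 and 44.3 CPM with knockdown against 16.1, 17.2, 14.7 and 15.2 with scramble (1.24 ± 0.12), so activators and inhibitors rose together. Among EGF ligands and ERBB receptors 7 of 15 fell and 5 rose, with ERBB2 at 42.9, 46.5, 49.1 and 49.4 CPM with knockdown against 103, 106, 98.6 and 98.8 with scramble (-1.11 ± 0.07). DUSP6, the phosphatase that restrains ERK, stood at 125, 126, 132 and 112 CPM with knockdown against 289.6, 331, 316 and 320.5 with scramble (-1.35 ± 0.06), within a list of MAPK feedback genes that had 8 of 21 lower and 6 higher. The ETS factor ETV5 fell by 1.10 on the log2 scale, and DUSP10, a phosphatase for stress kinases, rose by 1.19 ± 0.11. Of 29 immediate early genes 12 rose and 6 fell, the nuclear receptor NR4A1 rising by 1.32 ± 0.09 and the transcription factor KLF2 falling by 1.27 on the log2 scale. Interferon-stimulated genes had 13 of 33 lower and 3 higher. The NF-kB and chemokine list had 11 of 23 lower and 7 higher, and the chemokine CXCL16 stood at 27.7, 31.7, 29.5 and 29.4 CPM with knockdown against 51.8, 52.8, 55.5 and 50.7 with scramble (-0.83 ± 0.06). Among interferon-stimulated genes the antiviral oligoadenylate synthetase OAS3 stood at 32.8, 35.6, 37.4 and 34.8 CPM with knockdown against 84.96, 83.6, 77.1 and 71.6 with scramble (-1.17 ± 0.07).

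Cell surface and adhesion genes held several of the largest falls. ITGB4, the integrin subunit of hemidesmosomes, stood at 138, 146, 175 and 162 CPM with knockdown against 641, 640.2, 646 and 627 with scramble (-2.04 ± 0.12), and ITGA3, a laminin-binding subunit, at 122, 128, 132 and 142 CPM with knockdown against 269.6, 267, 271 and 264 with scramble (-1.03 ± 0.07). Both fell from high levels, while the list of 29 integrin, laminin and tensin genes had 12 lower and 10 higher. The epithelial junction list had 17 of 37 lower and 9 higher, with a median of -0.14. PKP3, a desmosomal plaque protein, stood at 40.3, 40.2, 45.3 and 44.8 CPM with knockdown against 98.2, 98.9, 102 and 105 with scramble (-1.24 ± 0.08), and TJP3, of tight junctions, at 15.5, 16.6, 19.2 and 18.3 CPM with knockdown against 38.8, 40.7, 42.9 and 42.9 with scramble (-1.25 ± 0.17). E-cadherin, CDH1, stood at 26.7, 29.4, 32.1 and 26.7 CPM with knockdown against 26.7, 28.5, 30.4 and 27.03 with scramble, where the groups overlapped (0.03 ± 0.08, not called). CDH1 was named after its values were seen. Of 37 mesenchymal matrix genes 8 rose and 9 fell, THBS1 standing at 51.5, 66.8, 48.3 and 66.6 CPM with knockdown against 20.1, 22.9, 20.8 and 20.7 with scramble (1.47 ± 0.14) and SPARC falling as described below.

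Lipid synthesis fell on the fatty acid side. Of 19 fatty acid synthesis genes 12 were lower and 2 higher, with a median of -0.395. SREBF1, the transcription factor of the pathway, stood at 87.3, 83.4, 109.7 and 91.98 CPM with knockdown against 287, 278, 296 and 290.2 with scramble (-1.63 ± 0.12). FASN, the synthase, stood at 556, 554, 643 and 642 CPM with knockdown against 1504, 1429, 1466 and 1318 with scramble (-1.26 ± 0.08), and SCD, the stearoyl-CoA desaturase, at 367, 376, 519.8 and 341 CPM with knockdown against 1017, 1024, 1065 and 1002 with scramble (-1.36 ± 0.12). The groups were far apart in these 3 genes. Cholesterol synthesis genes divided, with 12 of 28 lower and 8 higher in truncation cells against 5 lower and 14 higher in WT cells. LSS, which forms lanosterol, fell by 1.12 ± 0.08, and MSMO1, a later enzyme, rose by 0.92 ± 0.07. The interaction was called negative in 10 of the 28, in 5 under upper-quartile scaling and in 16 with DESeq2.

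Glucose and redox genes also changed. SLC2A1, the glucose transporter GLUT1, stood at 258, 306, 334 and 300.3 CPM with knockdown against 766, 789, 781 and 773 with scramble (-1.38 ± 0.09), and PFKL, a phosphofructokinase, at 66.5, 64.2, 76.1 and 70.4 CPM with knockdown against 186, 180.2, 189.9 and 192 with scramble (-1.43 ± 0.11). These falls stood in a list of 41 hypoxia and glycolysis genes with 15 lower and 4 higher, of which ADM, the vasodilator adrenomedullin, rose by 1.49 ± 0.06. In the NRF2 list 14 of 28 rose and 6 fell. OSGIN1 stood at 259, 266, 212 and 263 CPM with knockdown against 103, 101, 95.9 and 98.7 with scramble (1.33 ± 0.08), whereas SRXN1, sulfiredoxin, fell by 1.35 ± 0.13. Of 50 autophagy and lysosome genes 19 rose and 13 fell, and the largest change was a fall, of 1.23 on the log2 scale, in the lysosomal calcium channel MCOLN1.

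Chromatin regulators showed no common direction. SWI/SNF subunits had 9 of 28 higher and 11 lower, and SS18, a subunit of the canonical complex, stood at 50.8, 47.2, 54.5 and 51.2 CPM with knockdown against 118, 114, 113 and 118 with scramble (-1.18 ± 0.06). The ATPase SMARCA4 stood at 155, 160.2, 163 and 169 CPM with knockdown against 241, 226, 237 and 232 with scramble (-0.53 ± 0.05). Polycomb and deacetylase genes had 12 of 35 higher and 14 lower. CBX6 stood at 371, 372, 358 and 369 CPM with knockdown against 172, 160.5, 169 and 169.8 with scramble (1.13 ± 0.04), while the histone chaperone RBBP4 stood at 74, 70.1, 77.5 and 70.6 CPM with knockdown against 160.3, 165, 156 and 157 with scramble (-1.13 ± 0.05) and PHF19 at 32.1, 30.4, 29.2 and 32.4 CPM with knockdown against 67.3, 68.4, 62.6 and 68.4 with scramble (-1.10 ± 0.06).

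Genes typical of other lineages, which the title of the series concerns, moved both ways. Of 34 neuronal genes 21 passed the filter on low counts, and 6 of these rose (28.6%) and 8 fell (38.1%), against 28.7% and 28.1% of all tested genes. ASIC4, of the acid-sensing channel family, stood at 11.8, 11.4, 11.99 and 14.8 CPM with knockdown against 0.899, 0.979, 0.674 and 0.786 with scramble, a rise of 3.90 ± 0.14. KISS1R, the kisspeptin receptor, stood at 1.14, 1.24, 1.75 and 1.63 CPM with knockdown against 9.41, 9.21, 9.3 and 9.67 with scramble (-2.70 ± 0.16). Of 27 striated muscle genes 13 were tested, and 5 rose and 5 fell. TCAP, a sarcomere protein, stood at 6.3, 5.97, 5.38 and 6.09 CPM with knockdown against 0.484, 0.506, 0.404 and 0.683 with scramble (3.504 ± 0.18), whereas the muscle intermediate filament DES stood at 1.27, 2.13, 1.82 and 1.4 CPM with knockdown against 4.95, 5.26, 5.83 and 5.81 with scramble (-1.72 ± 0.15). These 4 genes stood below 15 CPM in every truncation library. Of 29 tested HOX genes 8 rose and 9 fell, HOXB9 standing at 20.2, 18.1, 21.6 and 17.2 CPM with knockdown against 33.97, 38.9, 37.5 and 39.5 with scramble (-0.96 ± 0.07). Intestinal identity genes had 6 of 14 higher and none lower. KLF5, a factor of crypt cells, stood at 116, 121, 106 and 124 CPM with knockdown against 80.3, 79.02, 73.02 and 73.6 with scramble (0.61 ± 0.06), and KLF4, a factor of differentiated cells, at 20.6, 19.6, 17.9 and 18.6 CPM with knockdown against 12.3, 12.9, 12.1 and 10.9 with scramble (0.67 ± 0.08). Of 12 tested keratin genes 5 fell and 4 rose, and KRT23 stood at 4.59, 4.36, 5.65 and 4.03 CPM with knockdown against 13.1, 14.2, 13.8 and 12.8 with scramble (-1.53 ± 0.10). Of 6 tested pluripotency genes 2 rose and 1 fell, and ZFP42, which rose, was at 0.402, 0.378, 0.297 and 0.233 CPM with knockdown against 0.104, 0, 0.0674 and 0.0342 with scramble and so under 0.5 CPM in every truncation library.

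Ribosome and mitochondrial genes changed by small amounts as lists. Ribosome biogenesis genes had 26 of 51 lower and 3 higher, with a median of -0.13, and TSR1, a factor for the small subunit, stood at 76.9, 81.2, 88.8 and 86.5 CPM with knockdown against 169, 173, 165 and 161 with scramble (-1.004 ± 0.05). Of 74 cytosolic ribosomal protein genes 9 were called higher and 4 lower, and none changed by 2-fold. That balance turned under other settings, with 4 higher and 6 lower under DESeq2, 3 and 7 with no filter on low counts, and more lower than higher without knockdown replicate 1 or 2 or without scramble replicate 1, 2 or 3, where 2 to 3 were higher and 5 to 10 lower. Mitochondrial ribosomal protein genes had 29 of 76 lower and 11 higher, with MRPS34 at 46.8, 43.6, 45.7 and 42.7 CPM with knockdown against 94.7, 96.8, 97.2 and 106 with scramble (-1.14 ± 0.08). NDUFV1, of complex I, stood at 74.8, 72.2, 81.2 and 73.9 CPM with knockdown against 147, 145, 146 and 159.5 with scramble (-0.98 ± 0.07) and UQCRC1, of complex III, at 147, 158, 157 and 134 CPM with knockdown against 283, 279.7, 280.3 and 302 with scramble (-0.94 ± 0.07), in a list of 73 nuclear respiratory chain genes with 22 lower and 12 higher (17 and 18 under upper-quartile scaling). Of 13 mitochondrially encoded genes 2 were called higher, and MT-CYB, at 2907, 2243, 3269 and 2860 CPM with knockdown against 2169, 1656, 2001 and 2530 with scramble, overlapped between groups and was not called with DESeq2 (adjusted p = 0.0547) or without knockdown replicate 3 or scramble replicate 2. DESeq2 called none of the 13.

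**Figure D4:**
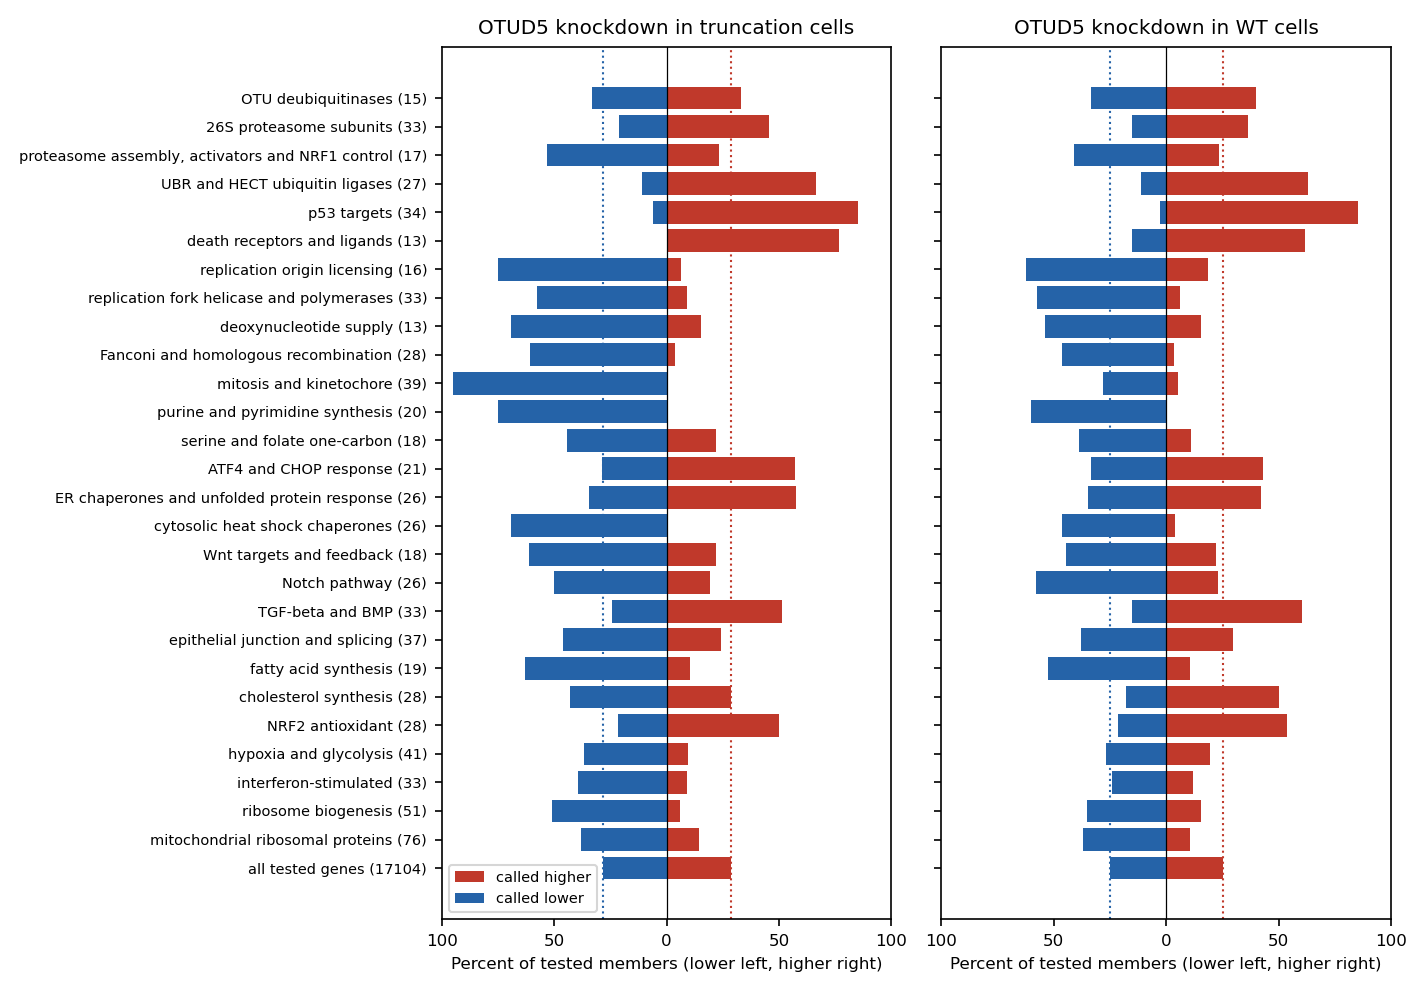
Percent of tested members called lower (blue, to the left) and higher (red, to the right) by OTUD5 knockdown, with one row per list and the number of tested members in parentheses, in truncation cells (left panel) and WT cells (right panel). Dotted lines mark the shares over all tested genes, 28.1% lower and 28.7% higher in truncation cells, and the mitosis bar is the longest on the lower side of the left panel.

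Calls also followed features of the transcripts. Among 2141 long noncoding RNA genes 22.9% were higher and 13.4% lower, with a median of 0.155, against -0.058 in WT cells, and among 13404 protein-coding genes 30.9% were higher and 32.2% lower. These 2 kinds were not matched for expression level. Genes of any kind below a mean log2 CPM of 0 had 18.5% higher and 8.63% lower, with a median of 0.172. The part of level in the noncoding shares was not tested. Long noncoding genes took 0.655 to 0.711% of counts in the knockdown libraries and 0.617 to 0.646% in the scramble libraries. In 9807 protein-coding genes at or above a mean log2 CPM of 3 and with a reference transcript, the 1962 of lowest GC content had 38.9% higher and 26.9% lower, with a median of 0.066, and the 1962 of highest GC content had 20.6% higher and 55.2% lower, with a median of -0.24. The same medians were 0.118 and -0.231 in WT cells. Across these genes, which are not independent replicates, Spearman's rho between GC content and the log2 fold change was -0.225 in truncation cells and -0.305 in WT cells. By length, the 1963 shortest had 24.1% higher and 42.2% lower and the 1962 longest 40.2% and 26.9%. The mitosis and licensing lists, with median GC contents of 43.2% and 46.5%, lay in the ranges of 40.75 to 45.5% and 45.51 to 51.65%, where 36.5% and 38.4% of genes were higher. The part of GC content and length in single results was not tested.

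The knockdown effect resembled that in WT cells in direction and exceeded it in size. Over 10097 genes at or above a mean log2 CPM of 3, the log2 fold changes of the 2 genotypes, which share no library, had a Pearson correlation of 0.922 and a Spearman correlation of 0.908 across genes. Of the genes called in truncation cells 72.6% were called in the same direction in WT cells, and of those called in WT cells 81.9% were called likewise in truncation cells. The median absolute log2 fold change was 0.334 in truncation cells and 0.283 in WT cells. Of the 1642 genes changed by at least 2-fold in truncation cells, 1452 had a larger change there than in WT cells, a comparison that their choice by size in truncation cells favours. The interaction was called for 974 genes (5.69%), 350 of them positive (2.05%) and 624 negative (3.65%). That split depended on scaling, with 502 positive and 397 negative under upper-quartile scaling and 401 and 1185 with DESeq2. Among the 974, 480 changed in the same direction in both genotypes and by more in truncation cells, 47 likewise but by more in WT cells, 270 were called in truncation cells only, 107 in WT cells only, and 70 in opposite directions.

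Several genes responded in one genotype far more than in the other. SPARC, a matrix glycoprotein, stood at 63.1, 72.9, 77.5 and 69.3 CPM with knockdown against 225, 231, 228 and 229.8 with scramble in truncation cells (-1.69 ± 0.08). In WT cells it held only 2.51, 3.29, 2.87 and 4.18 CPM with scramble and 2.62, 2.93, 3.7 and 2.12 with knockdown, and the interaction was -1.52 ± 0.17 (adjusted p = 1.1e-05 by edgeR's quasi-likelihood test). The gene was therefore low in WT cells with either treatment. SEMA3C, a secreted guidance cue, stood at 44.9, 45.2, 46.7 and 42.4 CPM with knockdown against 52.8, 50.9, 51.6 and 48.6 with scramble in truncation cells (-0.19 ± 0.07), while in WT cells it rose from 22.9, 24.6, 26.6 and 24.5 to 49.9, 56.9, 53.5 and 42.3 CPM (1.04 ± 0.07). The small fall in truncation cells was not called under upper-quartile scaling, without TMM scaling, or without knockdown replicate 4. SPP1, which encodes osteopontin, overlapped between the truncation groups at 32.3, 39.5, 36.8 and 36.6 CPM with knockdown against 36.4, 37.5, 38.3 and 35.4 with scramble and rose by 1.08 ± 0.16 in WT cells. In WT cells it stood at 1.47, 1.07, 0.796 and 1.14 CPM with scramble and 2.28, 2.13, 2.96 and 2.08 with knockdown. MSX2, a homeobox factor, fell by 0.27 ± 0.06 in truncation cells and rose by 0.70 ± 0.07 in WT cells. CEMIP, which degrades hyaluronan, stood at 6.1, 6.35, 6.31 and 6.69 CPM with knockdown against 19.9, 17.8, 19.04 and 18.5 with scramble (-1.56 ± 0.09) and changed by -0.56 ± 0.09 in WT cells. DDIT4L (-1.70 against -0.59), the noncoding MIR1915HG (-1.26 against -0.06) and PRF1 (-2.99 against -1.79) completed the most negative interactions.

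On the positive side GRIN2C led, rising by 1.34 ± 0.18 in WT cells, an interaction of 1.56 ± 0.25 (adjusted p = 5.7e-04 by edgeR's quasi-likelihood test). AMH, the anti-Mullerian hormone, rose in truncation cells, at 27.2, 24.9, 22.4 and 29.8 CPM with knockdown against 15.2, 14.1, 17.2 and 18.04 with scramble (0.69 ± 0.11), and fell in WT cells by 0.43 ± 0.11. YJEFN3 stood at 11.5, 10.9, 13.4 and 15.02 CPM with knockdown against 6.09, 6.51, 5.26 and 7.58 with scramble (0.996 ± 0.13) and GSDMB, a gasdermin, at 16.2, 14.6, 22.8 and 22.9 CPM with knockdown against 8.44, 9.24, 10.5 and 10.5 with scramble (0.98 ± 0.13). In WT cells neither was called (-0.21 ± 0.13 and -0.11 ± 0.12). SLC9A5, a sodium and proton exchanger, rose by 0.49 ± 0.10 in truncation cells and changed by -0.42 ± 0.10 in WT cells, where the fall was called, and ATP2A1, DKK1 and LIN7B rose in both genotypes by more in truncation cells. Of the genes called in opposite directions, none at that level changed by 1.5-fold in both. SOX4, a transcription factor of progenitor cells, was 1 of the 70, at 123, 116, 139 and 110.5 CPM with knockdown against 169, 171, 189.9 and 185 with scramble in truncation cells (-0.55 ± 0.08) and 0.39 ± 0.08 in WT cells, and was named after its values were seen.

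**Figure D5:**
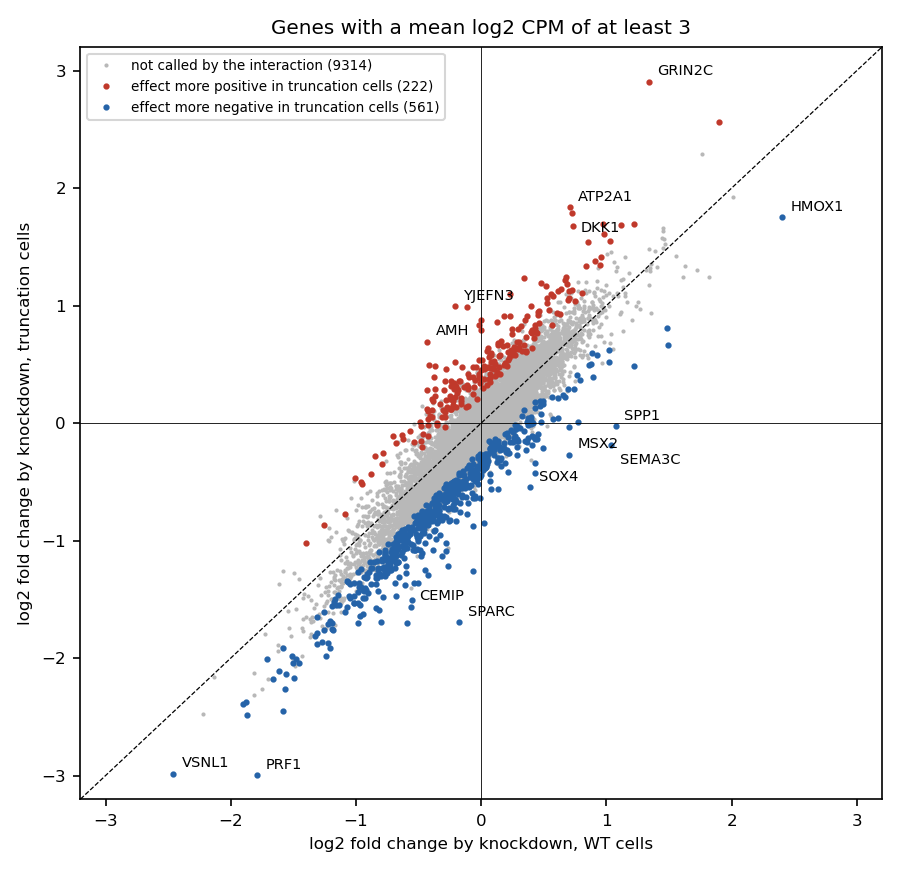
Log2 fold change by OTUD5 knockdown in WT cells (x axis) and in truncation cells (y axis) for 10097 genes at or above a mean log2 CPM of 3, with a dashed line of equal change. Grey points (9314) were not called by the interaction, red points (222) had a more positive and blue points (561) a more negative effect in truncation cells, a split that depends on scaling.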

How the data were processed

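RNA from 16 HCT116 libraries was sequenced by a vendor after a Nextera-XT-based preparation, per the labels' protocols. Per the submitters' processing notes, STAR 2.7.3a, DESeq2, edgeR, limma and hg38 were used. How reads were counted, and with which annotation and strand, is not given in the sources used here. Raw counts for 60668 genes were deposited by the authors, as were signal values (CPM scaled by TMM) for 22916 genes, which the authors' counts gave again to within a relative difference of 5e-15.

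From the counts, 17104 genes passed filterByExpr and were fitted with edgeR 4.0.16 in R 4.3.3 (TMM, quasi-likelihood, 1 coefficient per group, 12 residual degrees of freedom), with Benjamini-Hochberg adjustment. Contrasts were knockdown against scramble in each genotype and their difference. Replicate numbers did not pair the libraries. Alternatives included DESeq2 1.42.0, other scalings and filters, a replicate block and leaving out each library. On simulated counts for the truncation contrast, with 16816 genes tested, 86% of 50 genes changed by 2-fold and 71.4% of 49 changed by 1.5-fold were called. The simulation changed far fewer genes than were called in the data, so these shares do not measure recovery in this contrast.

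The members and gene lists were chosen with earlier results of these data known. Genes were named by rule: OTUD5 and PSMD4; the 12 largest rises and falls among called genes at or above a mean log2 CPM of 3 whose groups did not overlap; the 8 most positive and most negative interactions; and up to 5 called members of a list by size of change. Some genes that the rule names are not reported here. Sequences are from RefSeq (GRCh38.p14).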

Additional observations from a re-analysis of the deposited data

Results flagged for a closer look

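In groups of 4 libraries, a value was picked out where its gap to the nearest other library took up nearly the whole range of the group, by Dixon's 95% limit. Chance picks out about 1 in 20 groups, and 18 of 350 groups were picked out here. In knockdown replicate 1 of truncation cells this was MCM5 at 124 CPM. In knockdown replicate 2 of truncation cells this was BMF at 7.65 CPM. In knockdown replicate 3 of truncation cells this was OSGIN1 at 212 CPM and SHMT2 at 69.9 CPM. In knockdown replicate 4 of truncation cells this was ASIC4 at 14.8 CPM, ATP2A1 at 19.1 CPM, ORC2 at 53 CPM, PSMD14 at 178 CPM and PSME1 at 56.1 CPM. In scramble replicate 2 of truncation cells this was CHAC1 at 10.3 CPM and HSPA1A at 5.57 CPM. In scramble replicate 3 of truncation cells this was CCNB1 at 246 CPM. In scramble replicate 4 of truncation cells this was DDI2 at 48.1 CPM, KITLG at 728 CPM, PSMB3 at 364 CPM, QARS1 at 211 CPM and UQCRC1 at 302 CPM. The total count of scramble replicate 1, 29228470, also stood away from the other scramble libraries of truncation cells.

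The knockdown effect differed between genotypes, by edgeR's quasi-likelihood test with Benjamini-Hochberg adjustment, for 82 of the 172 genes named in the report, against 5.69% of all tested genes. The named genes were in part chosen for this difference. Values here are log2 fold changes in truncation cells minus those in WT cells. Positive values were found for 23 genes. The highest were GRIN2C (1.56), ASIC4 (1.36), TCAP (1.27), YJEFN3 (1.21), BMF (1.13), ATP2A1 (1.13), AMH (1.12) and GSDMB (1.09). Next came DKK1 (1.06), LIN7B (0.95), SLC9A5 (0.91), PSMA2 (0.73), COL7A1 (0.72), CPA4 (0.66), CHAC1 (0.63) and ARID3A (0.57). After these were PSMD4 (0.54), TGFBR3 (0.50), VASN (0.48), KLF4 (0.46), KRT18 (0.46), KLF5 (0.39) and SMAD3 (0.35). Negative values were found for 59. The lowest were SPARC (-1.52), SEMA3C (-1.23), PRF1 (-1.21), MIR1915HG (-1.20), DDIT4L (-1.11), SPP1 (-1.10), CEMIP (-1) and MSX2 (-0.97). Next came SOX4 (-0.94), LFNG (-0.87), SCD (-0.85), AXIN2 (-0.82), HES2 (-0.79), SLC2A1 (-0.77), NES (-0.69) and SREBF1 (-0.68). After these were HMOX1 (-0.65), PFKL (-0.61), SH2D5 (-0.61), ITGB4 (-0.58), CCNB1 (-0.57), MDM2 (-0.56), KIF20A (-0.55) and VSNL1 (-0.53). These were followed by KRT23 (-0.52), FASN (-0.50), NOTUM (-0.50), TSR1 (-0.50), HYOU1 (-0.50), PFAS (-0.49), PKP3 (-0.49) and MCAM (-0.49). Further values were SLC36A1 (-0.49), PLK1 (-0.49), SHMT2 (-0.48), VARS1 (-0.48), GINS1 (-0.48), FANCE (-0.48), CDK4 (-0.46) and QARS1 (-0.45). Then came AURKA (-0.45), AURKB (-0.43), DVL2 (-0.42), LSS (-0.42), TIMELESS (-0.42), MCM5 (-0.41), CENPA (-0.40) and HSPA8 (-0.39). Smaller differences were HECTD3 (-0.36), MCM6 (-0.35), RBBP4 (-0.35), MYBL2 (-0.34), OAS3 (-0.34), UBA1 (-0.32), EPCAM (-0.31) and FOXM1 (-0.31). Smaller still were SS18 (-0.30), DUSP6 (-0.28) and DNAJB1 (-0.28).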

How the results depend on the processing

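The knockdown effect in truncation cells kept its direction and its number of calls within 1.5 times under each alternative run, except that 990 genes changed by at least 2-fold when only genes with a mean of at least 1 CPM were tested, a filter that tests fewer genes. Leaving out 1 library at a time gave 9113 to 9260 calls (4327 to 4459 higher, 4785 to 4829 lower and 1618 to 1784 at 2-fold or more), and 7876 to 8483 calls in WT cells. The interaction depended on processing. DESeq2 called 1586 genes, 401 higher and 1185 lower, and upper-quartile scaling called 502 higher and 397 lower, a share of 55.8% higher against 35.9% in the main analysis and 25.3% with DESeq2. Leaving out 1 library gave 653 to 1661 calls, 205 to 533 higher and 426 to 1128 lower. The highest values came without knockdown replicate 2 of WT cells, and fewer than 230 higher calls remained without truncation knockdown replicate 4, truncation scramble replicates 1, 2 or 3, or WT scramble replicate 2. Without knockdown replicates 2 and 3 of WT cells, an alternative chosen after seeing the data, there were 1642 calls, 1284 of them lower. On the first principal component of the 16 libraries, WT knockdown replicate 2 lay at -14.09 and the other WT knockdown libraries at -6.571 to -2.524. WT knockdown replicate 3 had the high number of genes with a count given above. The cause of this dependence was not tested.

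With replicate numbers added as a replicate block, the fit called 9858 genes in truncation cells, 8755 in WT cells and 1150 by the interaction. The numbers showed no pairing, since deviations of same-numbered truncation libraries had correlations of -0.265, 0.0844, 0.0927 and -0.387. Differently numbered ones had correlations of -0.153 to 0.383. The highest were 0.383 for knockdown replicate 4 with scramble replicate 1 and 0.379 for knockdown replicate 1 with scramble replicate 4. What these libraries share was not tested. The log2 fold change of OTUD5 was -2.217 to -2.145 over single left-out libraries. No called effect of a named gene changed sign, though most called interactions were positive under upper-quartile scaling and negative otherwise in the scalings run. Of 172 genes named in the report, 7 lost the call of the knockdown effect in truncation cells under at least 1 alternative (SEMA3C, MT-CYB, AURKA, FDXR, PCNA, KDR and HBA2), and MDM2 gained one. Of the called interactions of named genes, 20 lost the call under at least 1 alternative, among them those of NOTUM, ITGB4 and HECTD3. Counts within gene lists were less stable: of 248 counts, 105 moved by over 1.5 times under at least 1 alternative (those chosen after seeing the data left aside), 96 of them counts of 5 or fewer genes and 9 larger ones. On simulated counts at this depth and number of libraries, 59.2% of 49 genes with a 1.5-fold difference between genotypes were called. There too, fewer genes were changed than were called in the data.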
